A study of Arabidopsis thaliana with 9 samples.

Results

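The mitochondrial genes nad4, nad4L and ccb382 were followed in Arabidopsis inflorescence tips of a receptor mutant, a ligand double mutant and the wild type. Their probe sets were taken as those whose platform annotation names exactly 1 gene and gives it one of these 3 symbols. The rule found 3 genes with 1 probe set each, of 13356 genes named from a probe set of their own and 22746 probe sets tested. They are 244929_at for nad4, 244902_at for nad4L and 244912_at for ccb382, and none carries the suffix that marks probes shared between transcripts.

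Plant mitochondria keep a small genome of their own, transcribed inside the organelle. nad4 and nad4L encode membrane subunits of complex I, the NADH dehydrogenase that passes electrons to ubiquinone and pumps protons. ccb382, also known as ccmFN1, encodes part of the machinery that attaches haem to c-type cytochromes, the electron carriers between the later respiratory complexes. The nad4 transcript contains introns that nucleus-encoded proteins help to splice, and plant mitochondrial RNAs are further changed by C-to-U editing. Unlike most nuclear mRNAs, these RNAs have no long, stable poly(A) tail.

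Total RNA was profiled on 9 single-colour Affymetrix arrays. The 3 genotypes were er-2, the double mutant epfl4 epfl6 and the wild type (WT), with 3 biological replicates each, all in the Col-0 background, untreated, on soil in continuous light and 33 days past germination. er-2 is an allele of ERECTA, a receptor-like kinase that promotes stem elongation, and EPFL4 and EPFL6 encode secreted peptides that act as its ligands. The labels do not say how many plants made up a sample, and they call the tissue inflorescence tips in one field and flower buds in another.

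Values are deposited log2 signals, on which a difference of 1 is a factor of 2 in linear signal. They ran from 1.74 to 13.47, with array medians of 5.81 to 5.91, and arrays of 1 genotype correlated at 0.9945 to 0.9973 across probe sets. Of the floral meristem markers, 1 of 9 was measured, CLV3, which was dim. Of the tapetum and anther markers, 5 of 9 were measured. Signals of ER, EPFL4 and EPFL6 were not analysed here, so the genotype labels had no check from the arrays. In a bulk tip, fewer cells of a type and less RNA per cell cannot be told apart.

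nad4 gave a signal well below WT in epfl4 epfl6, while er-2 stayed much nearer to WT. The nad4 log2 signal was 9.34, 9.46 and 9.57 on the er-2 arrays. It was 8.05, 8.35 and 8.30 on the epfl4 epfl6 arrays and 9.72, 9.68 and 9.85 on the WT arrays. The 3 genotypes did not overlap, with WT the highest, er-2 next and epfl4 epfl6 the lowest. The means were 9.46 ± 0.116 in er-2, 8.23 ± 0.163 in epfl4 epfl6 and 9.75 ± 0.0875 in WT (SD, n = 3 each).

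nad4 fell in epfl4 epfl6, with a log2 difference from WT of -1.52, a limma standard error of 0.0944, a 95% interval of -1.73 to -1.31 and an adjusted p of 1.03e-05. In linear signal the epfl4 epfl6 level was 0.349 of the WT level. Under the same rule, adjusted p under 0.05 over all probe sets, 33.9% of probe sets were called in this comparison and 16% were called lower. A change as low as that of nad4 or lower was seen for 145 of the 22746 probe sets, or 0.637%. So nad4 lay in the lower extreme of a comparison in which many probe sets were called.

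Between the mutants, nad4 was lower in epfl4 epfl6 than in er-2 by a log2 difference of -1.22 ± 0.0944 (limma SE, 95% interval -1.44 to -1.01, adjusted p = 5.22e-05), a ratio of 0.428. Here 20.2% of probe sets were called, 10.2% as lower, and 112 probe sets, or 0.492%, had a difference this low or lower. In 19.2% of probe sets the epfl4 epfl6 arrays lay below all er-2 arrays, as those of nad4 did. In er-2 against WT the nad4 difference was -0.29 ± 0.0944 (95% interval -0.50 to -0.08) with a limma adjusted p of 0.0534, which missed the threshold although the arrays did not overlap. In that comparison 20.8% of probe sets were called, 9.01% as lower, and in 15.9% of all probe sets the 3 er-2 arrays lay below the 3 WT arrays. Without er-2 replicate 3 the er-2 difference from WT passed, at an adjusted p of 0.046, whereas with the 3′ minus 5′ control index as covariate it was 0.01, at 0.986. The nad4 order therefore has 1 neighbouring pair, er-2 and WT, that was not separated by the test.

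nad4L gave a signal below the median of its array on all 9 arrays, at the 37.4 to 43.1 percentile. Its log2 signal was 4.56, 4.82 and 4.89 in er-2, 4.52, 4.78 and 4.75 in epfl4 epfl6, and 4.82, 4.99 and 5.29 in WT. The epfl4 epfl6 arrays lay below all WT arrays, whereas er-2 shared part of its range with each of the other genotypes. In 21.4% of all probe sets the epfl4 epfl6 arrays lay below the WT arrays in the same way.

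No nad4L difference passed the test. It was -0.28 ± 0.131 in er-2 against WT (limma adjusted p = 0.176) and -0.35 ± 0.131 in epfl4 epfl6 against WT (limma adjusted p = 0.0664). Without WT replicate 1 the epfl4 epfl6 difference from WT passed, at an adjusted p of 0.0296, and without WT replicate 3 it was -0.22. The er-2 difference was -0.15 without WT replicate 3 and -0.18 without er-2 replicate 1. Between epfl4 epfl6 and er-2 the difference was -0.07 ± 0.131, with a 95% interval of -0.36 to 0.22. That interval does not reach the nad4 difference of -1.22 between the same mutants.

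ccb382 was among the brightest probe sets, at the 95.8 to 97.1 percentile of its array, and its genotypes lay close together. Its log2 signal was 9.74, 9.84 and 9.83 in er-2, 9.76, 9.86 and 9.74 in epfl4 epfl6, and 9.98, 9.95 and 10.02 in WT. Every array of either mutant lay below every WT array, and the mutants overlapped each other. Of all probe sets, 15.9% lay wholly below WT in er-2 and 21.4% in epfl4 epfl6.

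Relative to WT, ccb382 in epfl4 epfl6 fell by 0.20 on the log2 scale, with a limma SE of 0.0593 and an adjusted p of 0.0278, a ratio of 0.873. This call was lost, with adjusted p from 0.0651 to 0.0872, without WT replicate 1, WT replicate 3, epfl4 epfl6 replicate 1 or epfl4 epfl6 replicate 3, and with median centring, at -0.15 and an adjusted p of 0.0845. In er-2 against WT the difference was -0.18 ± 0.0593 (limma adjusted p = 0.0548). Between epfl4 epfl6 and er-2 it was -0.01 ± 0.0593, with a 95% interval of -0.15 to 0.12. On the deposited scale the ccb382 arrays of both mutants thus lay below those of WT. The test did not separate er-2 from WT or the mutants from each other, and its epfl4 epfl6 call was easily lost.

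**Figure D1:**
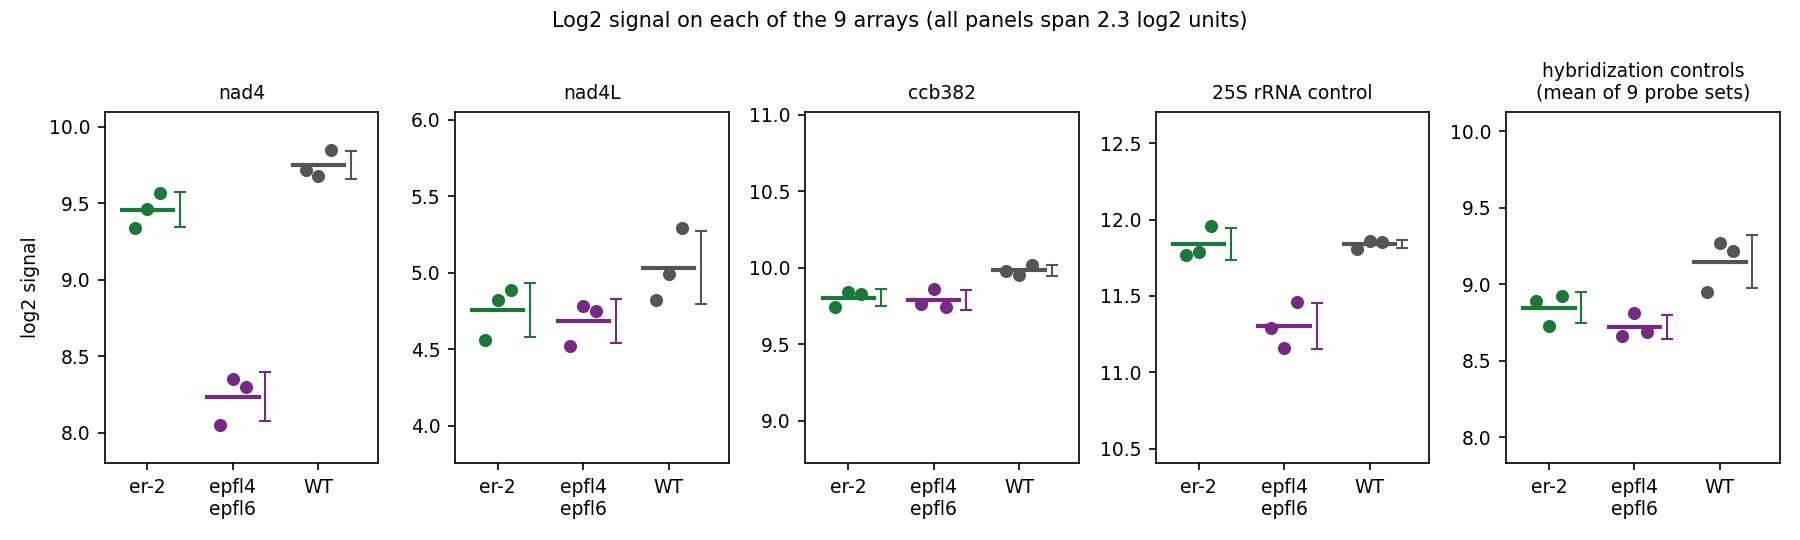
Deposited log2 signal of nad4, nad4L, ccb382, the 25S rRNA control and the mean of the hybridization controls, by genotype, with 1 point per array, a line at the mean of 3 arrays and a bracket for the SD. The epfl4 epfl6 arrays lie lowest for nad4, at 8.05 to 8.35, and for the 25S rRNA control, at 11.16 to 11.46.

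Genotype moved nad4 by more than ccb382, and this was tested on differences within an array, from which any shift common to the array drops out. nad4 minus ccb382 was -0.34 ± 0.0769 in er-2, -1.56 ± 0.142 in epfl4 epfl6 and -0.23 ± 0.0528 in WT (SD, n = 3 each). An exact permutation test over the 280 possible groupings of the arrays into 3 sets gave p = 0.0107 for this difference. nad4 minus nad4L was 4.70 ± 0.0691 in er-2, 3.55 ± 0.0237 in epfl4 epfl6 and 4.72 ± 0.177 in WT, with an exact permutation p of 0.0286. For nad4L minus ccb382 the exact permutation p was 0.55. Only the size of the genotype shift is read here, since different probe sets have no common scale of level.

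Over the 12 within-array differences tested in all, the adjusted exact permutation p was 0.0321 for nad4 minus ccb382 and 0.0643 for nad4 minus nad4L. In each of these, all 3 epfl4 epfl6 arrays lay below all arrays of er-2 and of WT, while er-2 and WT overlapped. The test compares all 3 genotypes at once. For a single pair of genotypes an exact permutation p cannot go below 0.1.

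Because the labelling kit primes at poly(A), the arrays' own 25S rRNA control, an RNA without a messenger's tail, was set beside the mitochondrial RNAs. Its log2 signal was 11.77, 11.79 and 11.96 in er-2, 11.29, 11.16 and 11.46 in epfl4 epfl6, and 11.81, 11.86 and 11.85 in WT. The epfl4 epfl6 arrays were again the lowest, with a mean difference from WT of -0.53, and did not overlap the others (exact permutation p = 0.0357). The 5S rRNA control, also untailed, varied more, at 5.86 ± 0.748 in er-2, 6.34 ± 0.804 in epfl4 epfl6 and 6.32 ± 0.226 in WT, and all genotypes overlapped. The mean of the 3′ minus 5′ control probe sets, an index of how complete the labelled RNA is, was 2.13 ± 0.081 in er-2, 1.67 ± 0.0507 in epfl4 epfl6 and 2.45 ± 0.138 in WT. No genotype overlapped another, and the exact permutation p was 0.00357, the smallest possible. The spiked-in hybridization controls averaged 8.85 ± 0.101 in er-2, 8.72 ± 0.0829 in epfl4 epfl6 and 9.15 ± 0.17 in WT (exact permutation p = 0.0107).

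nad4 stayed lower in epfl4 epfl6 when read against these controls. nad4 minus the 25S rRNA control was -2.44, -2.32 and -2.39 in er-2, -3.24, -2.81 and -3.16 in epfl4 epfl6, and -2.08, -2.18 and -2.0 in WT. The genotypes did not overlap, and the exact permutation p was 0.00357, or 0.0214 adjusted over the 12 differences. The epfl4 epfl6 minus WT difference was -0.99, beside -1.52 on the deposited scale. Read against the hybridization controls, nad4 differed from WT by 0.01 for er-2 and by -1.09 for epfl4 epfl6 (exact permutation p = 0.0321, adjusted 0.0643).

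ccb382 changed direction against the 25S rRNA control. ccb382 minus the control was -2.03, -1.95 and -2.14 in er-2, -1.53, -1.30 and -1.72 in epfl4 epfl6, and -1.83, -1.91 and -1.82 in WT. The epfl4 epfl6 arrays now lay above the WT arrays, by 0.34 on average, and the er-2 arrays below them, by -0.19 (exact permutation p = 0.00357, adjusted 0.0214). For nad4L minus the control the epfl4 epfl6 difference from WT was 0.19, with an exact permutation p of 0.0786. Against the hybridization controls, ccb382 differed from WT by 0.12 for er-2 and 0.23 for epfl4 epfl6 (exact permutation p = 0.175), and nad4L by 0.03 and 0.08 (exact permutation p = 0.854). Centring on the 25S rRNA control moved the median of all probe sets to 0.53 in epfl4 epfl6 against WT. Relative to that shift nad4 was far below, and ccb382 and nad4L were below by less.

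After each array was centred on the 25S rRNA control and refitted with limma over all probe sets, nad4 differed from WT by -0.99 ± 0.129 in epfl4 epfl6, at an adjusted p of 4.97e-07. In that fit 2.22% of probe sets were called lower and 83.6% higher. With the hybridization controls as the zero the difference was -1.09 ± 0.141 (limma adjusted p = 1.06e-08), against 2.78% of probe sets called lower. Neither control centring ended the nad4 call or turned its direction. Fitting a control as a covariate did end it. With the 25S rRNA control as covariate the difference was -1.39 at a limma adjusted p of 0.0607, and with the 3′ minus 5′ index it was -0.78 at 0.439, in a fit that called 1 probe set of all. The index and genotype move together here, and their parts in the nad4 difference cannot be told apart.

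**Figure D2:**
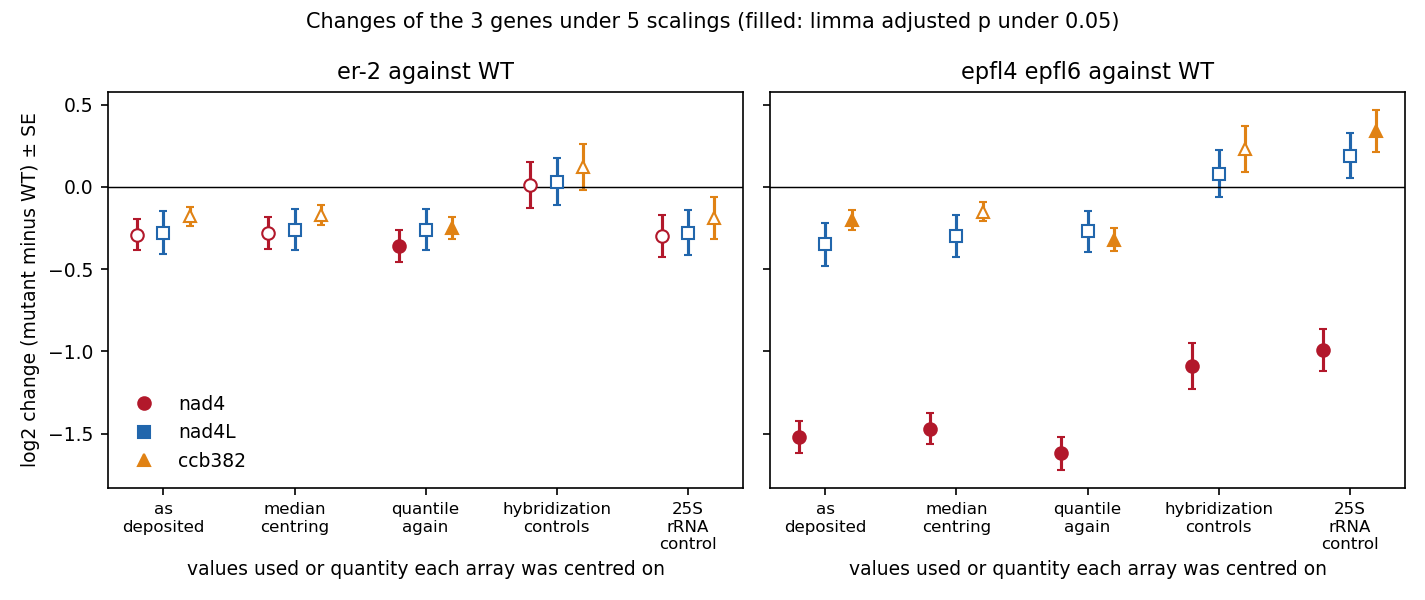
log2 difference from WT of nad4, nad4L and ccb382 in er-2 and in epfl4 epfl6, with limma standard errors, under 5 scalings of the arrays, filled where called. nad4 lies below zero in epfl4 epfl6 under each of those plotted, at -0.99 with 25S rRNA centring, while ccb382 turns to 0.34 there.

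The rest of the mitochondrial genome gave a background for the 3 genes. A further 20 probe sets name exactly 1 mitochondrial gene, among them 7 for nad1 and 2 for nad5. In er-2 against WT, 1 of the 20 rose and 2 fell, or 10%, beside 9.01% of all probe sets called lower, with a median of -0.08. Of the same 20, 1 rose and 6 fell in epfl4 epfl6 against WT, or 30% beside 16% called lower over all, with a median of -0.26. Of the 17 that were not dim, 0 rose and 6 fell in epfl4 epfl6, or 35.3%. Their median was -0.37, with 16 of the 17 below zero. The median over all probe sets was 0.01 for er-2, while for epfl4 epfl6 it was 0.00. The changes in epfl4 epfl6 ran from -0.69 to 0.34, so none of the 20 came near the -1.52 of nad4. The epfl4 epfl6 count of falls was 5 to 7 when any 1 array was left out. The er-2 count of falls was 1 without WT replicate 2, WT replicate 3, er-2 replicate 1 or er-2 replicate 2.

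nad4 was set against the mean of these 20 probe sets, dim ones included, on each array. The difference was 4.29, 4.56 and 4.31 in er-2, 3.24, 3.28 and 3.47 in epfl4 epfl6, and 4.55, 4.55 and 4.63 in WT. All epfl4 epfl6 arrays lay below the others, with a mean difference from WT of -1.25 (exact permutation p = 0.0107, adjusted 0.0321). For nad4L and ccb382 against the same mean the exact permutation p was 0.564 and 0.371. Thus nad4 moved apart from the mean of these 20, and a separation of nad4L or ccb382 from it was not detected. The mean leaves out 12 probe sets that list a mitochondrial gene jointly with another gene. One of these, 244944_s_at, singled out after its values were seen, averaged 8.86 ± 0.143 in epfl4 epfl6 and 10.15 ± 0.0684 in WT, a difference of -1.29 close to that of nad4.

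Among the complex I genes of the mitochondrial genome, nad9, a subunit of the matrix arm, fell in both mutants. Its log2 difference from WT was -0.45 in er-2 (limma adjusted p = 0.0122) and -0.69 ± 0.101 in epfl4 epfl6 (limma adjusted p = 0.000668). nad5, a membrane subunit like nad4, has 2 probe sets, of which 257338_s_at fell by 0.38 in epfl4 epfl6 (limma adjusted p = 0.00369) and 257337_at had a difference of -0.04. Of the 7 nad1 probe sets, 257325_at fell by 0.58 in epfl4 epfl6 (limma adjusted p = 0.00393) and 257322_at by 0.51, at an adjusted p of 0.0131. The second call was lost without WT replicate 3, epfl4 epfl6 replicate 1 or epfl4 epfl6 replicate 3, at 0.0502 to 0.0573. The other 5 nad1 probe sets had differences of -0.37 to 0.01 and were not called. Of these, 257323_at and 257329_at were dim, at 3.37 and 3.25 in WT, which limits how far a fall could show. The brighter 257321_at, at 4.83 in WT, differed by -0.02, so calls still differed between probe sets of 1 gene. The lowest of the 5, 257327_at, at 3.65 in WT, passed without epfl4 epfl6 replicate 2, at -0.55 and an adjusted p of 0.0079. nad2, whose probe set was dim at 2.99 in WT, was 0.35 higher in er-2 and 0.34 higher in epfl4 epfl6. Its er-2 call was lost without any WT replicate, er-2 replicate 1 or er-2 replicate 2, at adjusted p up to 0.0937. Its epfl4 epfl6 call was lost without replicate 1 or 3 of either epfl4 epfl6 or WT, at adjusted p up to 0.0862. nad6 had differences of -0.06 in er-2 and -0.47 in epfl4 epfl6 and nad7 of 0.08 and 0.14, and none of these was called. Over the 13 probe sets of other mitochondrial complex I genes, 1 rose and 4 fell in epfl4 epfl6, with a median of -0.26. The falls are 30.8%, beside 16% of all probe sets called lower and 17.9% higher. In er-2, 1 rose and 1 fell, with a median of -0.09. These are 7.69% each, beside 11.8% of all probe sets called higher and 9.01% lower. The 13 hold the 7 nad1 probe sets, so they do not count genes.

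The cytochrome c maturation genes beside ccb382 were ccb452, ccb206 and ccb203, known also as ccmFC, ccmB and ccmFN2. ccb452 fell in epfl4 epfl6 by 0.67 on the log2 scale, with a limma SE of 0.0922 and an adjusted p of 0.000444. In er-2 its difference was -0.33 at an adjusted p of 0.0321, lost without er-2 replicate 1 or 2 or WT replicate 2 or 3, at 0.0804 to 0.107. ccb206 differed from WT by -0.02 in er-2 and -0.07 in epfl4 epfl6, and ccb203 by 0.02 and -0.10, with none called. So 1 of 3 probe sets of this list fell in epfl4 epfl6, beside 16% of all probe sets called lower. A list of 3 is too short to be set apart from that share. ccb382, called in epfl4 epfl6 by a small margin, lay between them.

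In the RefSeq gene order of the mitochondrial genome, which holds 66 named genes and was not matched to a build of the array, nad4 stands between ccmFC and mttB. Both neighbours were on the array under older names, ccmFC as ccb452 and mttB as orfX. orfX encodes a protein related to the bacterial twin-arginine translocase, and it fell in epfl4 epfl6 by 0.48 ± 0.108 (limma adjusted p = 0.00715), with a difference of -0.23 in er-2 that was not called. ccb452, nad4 and orfX thus fell in epfl4 epfl6 on the deposited scale, with differences of -0.67, -1.52 and -0.48 in the order of the map. In this comparison 16% of all probe sets and 30% of the 20 other mitochondrial ones were called lower. On the 25S rRNA and hybridization scales orfX stood at 0.06 and -0.05 and ccb452 at -0.14 and -0.24, none of them called. nad4 stood at -0.99 and -1.09 there. nad4L stands between trnF and atp4, and ccmFN1 between ccmC and trnE, apart from nad4 and from each other. The probe sets of ccb452 and orfX carry the suffix that marks shared probes, so their signal may include another transcript.

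The directions of these smaller changes rest on the scaling. With arrays centred on the 25S rRNA control, 9 of the 20 other mitochondrial probe sets rose and 0 fell in epfl4 epfl6 against WT, with a median of 0.28. In that fit limma called 83.6% of all probe sets higher and 2.22% lower, and the median of all was 0.53. With the hybridization controls 8 rose and 0 fell, with a median of 0.17. There limma called 70.7% higher and 2.78% lower, and the median of all was 0.43. Under both scalings the median of the 20 lay below the median of all probe sets, and nad4 was the one of the 3 genes that stayed negative. Among the 20, 4 lay below zero on the 25S rRNA scale and 7 on the hybridization scale, none of them called. nad9 was the lowest of these, at -0.15 and -0.26, with ccb452 at -0.14 and -0.24. Of the probe sets that list a mitochondrial gene jointly with another gene, 244944_s_at was called lower on both scales. It stood at -0.76 and -0.87 (limma adjusted p = 2.67e-05 and 1.02e-06). 266044_s_at was called lower on the hybridization scale alone, at -0.35. 265232_s_at and 266013_s_at were called higher on both scales, and 263509_s_at on the 25S rRNA scale.

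**Figure D3:**
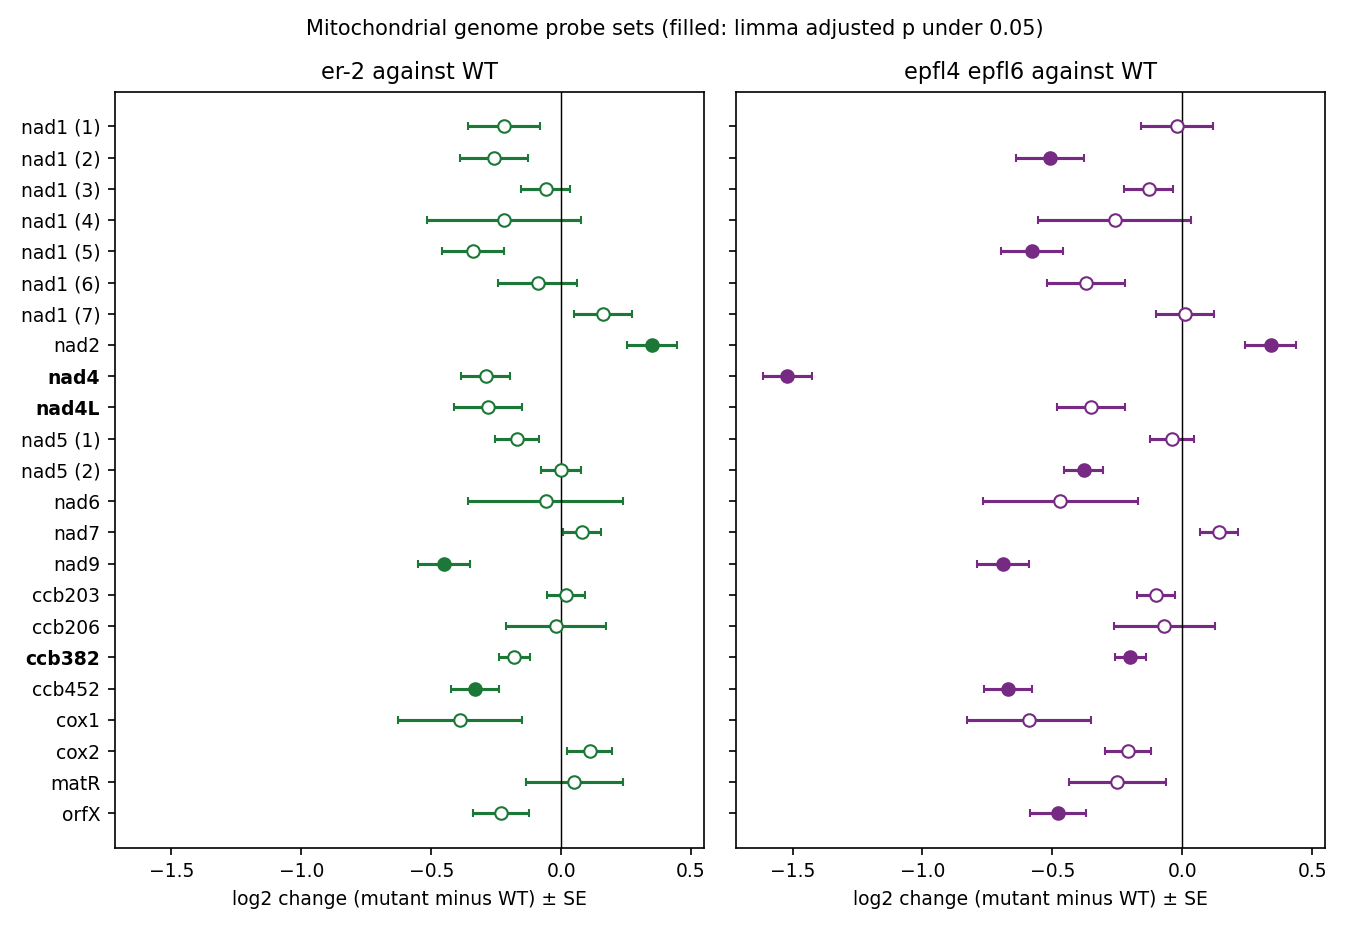
log2 difference from WT of each mitochondrial probe set with 1 gene, in er-2 on the left and epfl4 epfl6 on the right, with bars of 1 limma standard error and filled points where called. nad4 stands apart at -1.52 in epfl4 epfl6, and the next lowest is nad9 at -0.69. Numbers in brackets separate probe sets of the same gene.

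Complex I is built from mitochondrial and nuclear subunits, and more of the nuclear genes rose than fell. Of 38 listed nuclear complex I genes, 25 had a probe set of their own. Against WT, 15 of them rose and 1 fell in epfl4 epfl6, with a median of 0.23, beside 17.9% of all probe sets called higher. In er-2, 5 rose and 1 fell, with a median of 0.10, beside 11.8% called higher. The er-2 count of rises was 1 without WT replicate 2, 2 without WT replicate 3, 0 without er-2 replicate 1, 1 without er-2 replicate 2 and 3 without er-2 replicate 3. With the 3′ minus 5′ index as covariate, 0 rose in epfl4 epfl6, but that fit called 1 of 22746 probe sets and 0 as higher. The count therefore says nothing particular to this list. The index was 1.67 in epfl4 epfl6 against 2.45 in WT.

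FRO1, a subunit of the peripheral arm, averaged 9.91 ± 0.0532 in epfl4 epfl6 and 9.21 ± 0.0243 in WT, a difference of 0.69 ± 0.0591 (limma adjusted p = 4.07e-05). In er-2 FRO1 was 0.24 above WT at an adjusted p of 0.017, lost without er-2 replicate 1, er-2 replicate 2 or WT replicate 2, at 0.0531 to 0.0686. AT4G02580, AT5G11770 and AT5G52840 of the same list rose in epfl4 epfl6 by 0.58, 0.54 and 0.45, with limma adjusted p of 0.00025, 0.000424 and 0.000369. FRO1 and nad4 belong to the same enzyme and their signals moved apart in epfl4 epfl6, with log2 differences from WT of 0.69 and -1.52.

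Among nuclear subunits of the other respiratory complexes, most of those measured rose in epfl4 epfl6. Of 17 listed genes, 8 had probe sets, 9 in all, and 6 of these rose with a median of 0.26, beside 17.9% of all probe sets called higher. In er-2 1 of the 9 rose, or 11.1%, close to the 11.8% called higher over all. The epfl4 epfl6 count was 4 without epfl4 epfl6 replicate 1, and also without WT replicate 1 or WT replicate 2. SDH2-1, an iron-sulphur subunit of succinate dehydrogenase, rose by 0.45 in epfl4 epfl6 (limma adjusted p = 0.000945) and differed by 0.19 in er-2, which was not called. AT3G27240 rose in both mutants, by 0.30 in er-2 (limma adjusted p = 0.00408) and by 0.67 in epfl4 epfl6 (limma adjusted p = 3.42e-05). Their rise stands beside the fall of the 3′ minus 5′ index in the same arrays, and its part in them was not tested.

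Around ccb382, the nuclear cytochrome c genes gave little. CYTC-2, a cytochrome c gene, was 0.35 higher in epfl4 epfl6 at a limma adjusted p of 0.0444, lost without epfl4 epfl6 replicate 1 or 3 or WT replicate 2 or 3, at 0.0642 to 0.152, in the fit on the 6 arrays compared, at 0.0667, and with quantile normalization again, at 0.068. CYTC-1 differed by 0.16 at 0.068 and CCMH, a maturation factor, by 0.07 at 0.673. These 3 were the measured ones of 5 listed.

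Nuclear factors that splice or edit mitochondrial RNA or transcribe it were represented by 11 of 25 listed genes. In er-2 1 fell and 0 rose, and in epfl4 epfl6 2 fell and 0 rose. These falls are 9.09% and 18.2% of the list, close to the 9.01% and 16% of all probe sets called lower. AT3G03580 fell in er-2 by 0.40 on the log2 scale (limma adjusted p = 0.0102), and in epfl4 epfl6 its difference was -0.30 at 0.0239. That call was lost without replicate 2 or 3 of either epfl4 epfl6 or WT, at up to 0.0807, with quantile normalization again, at 0.0696, and with median centring, at 0.0519. AT5G04050 differed by -0.24 in epfl4 epfl6 at a limma adjusted p of 0.0292, lost under 8 of 13 alternatives. These were the fits without epfl4 epfl6 replicate 1 or 3 or WT replicate 1 or 2, at up to 0.0914, and those with the variance trend, the replicate block, median centring or quantile normalization again, at 0.0513 to 0.134. Each array left out took the epfl4 epfl6 count of falls to 1 or 0. OTP43, a pentatricopeptide repeat protein that acts on nad1 splicing, had differences of 0.14 in er-2 and -0.03 in epfl4 epfl6, with neither called. Of the 6 measured genes of 18 for alternative respiration and mitochondrial stress, 0 changed in er-2 and 1 fell in epfl4 epfl6. This fall is 16.7% of the list, close to the 16% of all probe sets called lower. The er-2 count became 1 without er-2 replicate 1 or any WT replicate. The gene that fell in epfl4 epfl6 was AT5G09570, with a fall of 0.58 at a limma adjusted p of 0.00437. NDB2 and NDB3, external NADH dehydrogenases that bypass complex I, differed from WT by -0.21 and 0.26 in er-2 and by -0.06 and 0.18 in epfl4 epfl6, none of them called.

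**Figure D4:**
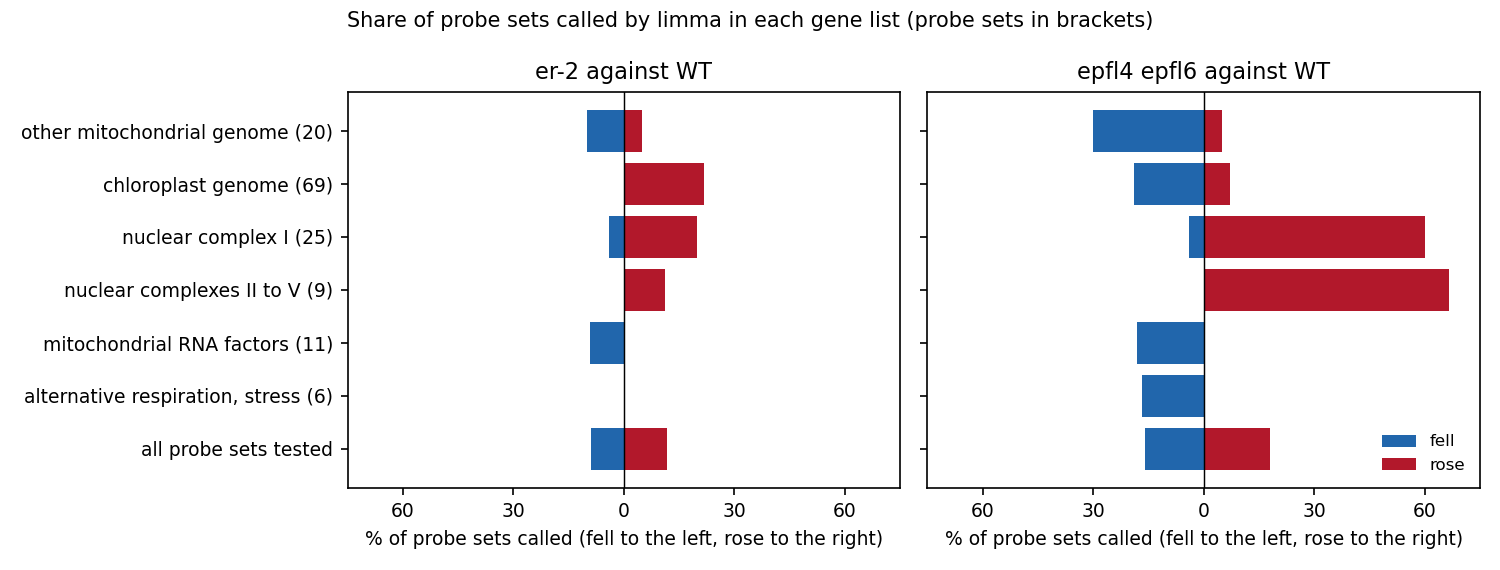
Percent of the probe sets of each gene list that limma called, with falls drawn to the left and rises to the right, for er-2 and for epfl4 epfl6 against WT, above the same for all probe sets tested. In epfl4 epfl6, 60% of the nuclear complex I probe sets rose and 30% of the other mitochondrial ones fell, beside 17.9% and 16% of all probe sets.

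Markers of floral tissues moved with genotype on the same arrays as nad4. The log2 of the summed linear signal of the 5 measured tapetum and anther markers was 9.34 to 10.14 in er-2, 9.02 to 9.24 in epfl4 epfl6 and 10.13 to 10.86 in WT. Of the 5, 3 fell in er-2, namely EMS1, AMS and SHT, and 4 fell in epfl4 epfl6, beside 9.01% and 16% of all probe sets called lower. ATA27 averaged 6.97 ± 1.84 in er-2, which was not called, 2.61 ± 0.224 in epfl4 epfl6, where it fell, and 8.95 ± 0.696 in WT. The er-2 count was 1 without WT replicate 2. The summed level of the 3 leaf markers was 13.48 to 13.54 in er-2, 13.38 to 13.51 in epfl4 epfl6 and 13.08 to 13.17 in WT. For nad4 the part of these tissue differences was not tested.

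Among probe sets that name exactly 1 gene, the 5 with a profile over the 9 arrays most like that of nad4 were all of nuclear genes. The 12 probe sets that list a mitochondrial gene jointly with another gene were not candidates. Among those is 244944_s_at, at -1.29 in epfl4 epfl6 against WT. Likeness was the root mean square difference between log2 profiles, each centred on its mean, over the 13512 other probe sets with 1 gene. The nearest to nad4 was AT2G30600 at 0.125, then AT3G26510 at 0.163, AT3G28540 at 0.194, AT3G09405 at 0.215 and AT5G27920 at 0.218. Their changes in epfl4 epfl6 ran from -1.40 to -1.17 and those in er-2 from -0.62 to -0.06. nad4L stood at rank 1394 and ccb382 at rank 2731 in the order for nad4.

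nad4L was most like 2A6 at 0.0464, followed by AT2G41640 at 0.0718, AT5G26770 at 0.0883, AT1G63640 at 0.092 and AT3G45460 at 0.0978. ccb382 was most like AT1G52310 at 0.0181, followed by AT2G01820 at 0.0317, AT3G06240 at 0.0326, AT3G49880 at 0.0389 and AT1G18550 at 0.0395. A profile that moves little lies near many others, and ccb382 stood at rank 230 in the order for nad4L. The points share arrays and scaling, so these distances describe the 9 arrays and carry no test.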

How the data were processed

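The deposited table holds log2 expression values made by the authors with RMA, and limma was also named, per the submitters' processing notes, and their versions are not given in the sources used here. Biotin-labelled cRNA was made with a kit that primes at poly(A), per the labels' protocols. The values were used as deposited. Of 22810 probe sets, 64 controls stayed out of the tests. Probe sets were named through the platform's annotation, where 13513 probe sets have 1 gene, 503 several and 8730 were not listed. Symbols were updated through a RefSeq gene table used for names and gene order alone. The members' identifiers matched 0 of its entries, so mitochondrial genes were found by symbol.

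limma 3.58.1 in R 4.3.3 fitted a mean per genotype over 9 arrays. Tests were two-sided and adjusted by Benjamini-Hochberg over 22746 probe sets, and a call was an adjusted p under 0.05. The fit was tested on simulated data. Log2 changes of 0.5 were recovered in 62% for er-2 and 61% for epfl4 epfl6 against WT, and changes of 1 in 93% and 95%. Smaller changes, such as those of nad4L and ccb382, and shifts common to an array were not simulated. Single values were compared by exact permutation over 280 groupings (Python 3.11.15). The hybridization controls are the mean of 9 spike-in probe sets, and the 3′ minus 5′ index the mean of 6 pairs. A probe set is called dim where its mean lies below the highest lower quartile of the arrays, 3.33. Named genes were the members, the other mitochondrial complex I and cytochrome c maturation genes, up to 4 of each other list by smallest p, and the 5 most alike profiles. The members and lists were chosen with earlier results of these data known. Centring on the hybridization controls and the within-array differences other than those from the 25S rRNA control were added after seeing the data. Both mutants share the WT arrays. The limma p-values rest on the spread between replicates within genotypes, pooled over the 9 arrays and moderated across probe sets. The number of arrays limits the precision.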

Additional observations from a re-analysis of the deposited data

Results flagged for a closer look

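nad4 was flagged because its change differed between the mutants in a direct test. It was lower in epfl4 epfl6 than in er-2 by a log2 difference of -1.22 (limma adjusted p = 5.22e-05), with log2 means of 8.23 ± 0.163 in epfl4 epfl6 and 9.46 ± 0.116 in er-2 (SD, n = 3 each) and no overlap between them. Groups of 3 arrays were not searched for outlying arrays.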

How the results depend on the processing

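nad4 in epfl4 epfl6 against WT kept its direction under all alternatives run and its call under all but the covariates, at -0.78 with the 3′ minus 5′ index and -1.39 with the 25S rRNA control, and ranged from -1.58 to -1.43 with 1 array left out. Against er-2 it was -0.79 and -1.10 with these covariates and -1.29 to -1.13 with 1 array left out. In er-2 against WT nad4 passed at -0.36 with quantile normalization again, -0.32 with array weights, and -0.29 with the variance trend, without the dimmest 30%, with only the 6 arrays compared and with the replicate block, and ranged from -0.35 to -0.23 with 1 array left out, but was 0.01 both with the index as covariate (adjusted p = 0.986) and on the hybridization scale (0.951). nad4L passed with the replicate block, at -0.28 in er-2 and -0.35 in epfl4 epfl6 against WT, ranged from -0.38 to -0.15 in er-2 and -0.46 to -0.22 in epfl4 epfl6 with 1 array left out, with the index as covariate stood at 0.11 for er-2 and 0.59 for epfl4 epfl6, neither called, and reversed to 0.47 in epfl4 epfl6 against er-2 on the 25S rRNA scale. ccb382 in er-2 against WT passed at -0.25 with quantile normalization again, -0.18 without the dimmest 30% and with the variance trend, and -0.19 with array weights. In epfl4 epfl6 against WT ccb382 missed at -0.15 with median centring and -0.29 with the 25S rRNA covariate, reversed to 0.34 and 0.23 on the 25S rRNA and hybridization scales and to 0.05 with the index, and ranged from -0.23 to -0.17 with 1 array left out. Against er-2 it reversed to 0.52 on the 25S rRNA scale. For nad4L minus the 25S rRNA control the exact permutation p was 0.0286 with quantile normalization again and 0.0179 to 0.161 with 1 array left out. The cause of these shifts was not tested.

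Counts of called probe sets moved most. In er-2 against WT 4722 became 2643 with the 25S rRNA centring, 11220 with the hybridization controls and 648 with the index as covariate. In epfl4 epfl6 against WT 7707 became 19520, 16724 and 1, and 148 with the 25S rRNA covariate. In epfl4 epfl6 against er-2 4587 became 20215, 2468 and 66, and 23 with the 25S rRNA covariate. Replicate numbers did not clearly pair the arrays, as deviations of arrays with the same number correlated at -0.193 to 0.289. Arrays with different numbers were not compared in this way, so pairing was not settled. The block fit above rests on the numbers alone. Of 1908 other values, 1724 stayed on the same side of the threshold, 149 lost and 35 gained a call. A reversal was counted only where a call was made in either fit, and there were 0. Changes of direction between values that were not called count among the 1724. Some of the values are exact permutation p-values, which have no direction. For single genes other than the 3, the values leave out the control centrings and covariates. Under each of those, 0 of the 20 other mitochondrial probe sets fell in epfl4 epfl6 against WT. Few probe sets fell there at all, 2.22% with the 25S rRNA centring and 2.78% with the hybridization centring. With the index as covariate 1 of 22746 fell, and with the 25S rRNA covariate 70. So 0 of 20 lies near these shares. The nad4L signal, below the median of every array, limits how small a change could be measured there.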

Other observations

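A further 12 probe sets list a mitochondrial gene together with another gene, 11 of them with a locus of nuclear chromosome 2, and their signal cannot be given to either. In epfl4 epfl6 against WT 0 rose and 7 fell, beside 16% of all probe sets called lower, with a median of -0.43 and a range of -1.29 to -0.03. The count of falls was 5 to 8 when any 1 array was left out.

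Genes of the chloroplast genome, the other organelle genome whose RNAs lack a long tail, differed between the mutants. In epfl4 epfl6 against er-2, 0 of 69 probe sets rose and 20 fell, or 29% beside 10.2% of all probe sets called lower, with a median of -0.26 and 62 below zero. Without epfl4 epfl6 replicate 1 the count of falls was 12. Of the 69, 15 rose and 0 fell in er-2 against WT, and 5 rose and 13 fell in epfl4 epfl6, with medians of 0.13 and -0.11. Over all probe sets 11.8% were called higher in er-2, and 17.9% higher and 16% lower in epfl4 epfl6, where the chloroplast falls were 18.8% of the list. The er-2 count of rises was 8 without WT replicate 3 and 9 without er-2 replicate 1 or er-2 replicate 3. atpF, a subunit of the chloroplast ATP synthase, fell by 0.65 in epfl4 epfl6 (limma adjusted p = 0.000145) and had a difference of 0.13 in er-2 that was not called. rpl20, a protein of the chloroplast ribosome, fell by 0.84 in epfl4 epfl6 (limma adjusted p = 0.00034). ndhA, a subunit of the chloroplast NADH dehydrogenase-like complex, rose in both mutants, by 0.62 in er-2 (limma adjusted p = 0.00184) and 0.71 in epfl4 epfl6 (limma adjusted p = 0.000454).

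The arrays of both mutants differed among themselves over the mitochondrial probe sets. The mean of the 20 other mitochondrial probe sets was 5.05, 4.90 and 5.26 on the er-2 arrays. It was 4.81, 5.08 and 4.83 on the epfl4 epfl6 arrays and 5.17, 5.13 and 5.22 on the WT arrays. Replicate 2 was the lowest of the er-2 arrays in 14 of the 20 other mitochondrial probe sets, and replicate 3 the highest in 15 of 20. Such counts were not made for the other genotypes or over all probe sets. The median SD over these probe sets was 0.162 in er-2, 0.182 in epfl4 epfl6 and 0.104 in WT.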
